A study of Mus musculus with 6 samples.

Results

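The unfolded protein response and the chaperones of the endoplasmic reticulum (ER) were described in the distal jejunum of mice that lack Hnf4a in the intestinal epithelium. The set holds 38 genes, taken by gene symbol and placed by role: 4 stress sensors, 4 transcription factors, 12 chaperones and co-chaperones, 5 protein disulfide isomerases, 7 genes of ER degradation, 3 of the translocon and 3 targets of Atf4. All 38 were measured, among 18193 genes in all. RNA came from 3 control and 3 mutant littermates at 7 months of age, with 1 Affymetrix array per animal. All 6 mice carry the strain label B6.129X1(FVB)-Hnf4atm1.1Gonz/J, the floxed Hnf4a strain, and all were anaesthetised with ketamine and xylazine before they were killed. In the mutants a 12.4-kb Villin-Cre transgene, active in the intestinal epithelium, deleted Hnf4a, a nuclear receptor that acts as a transcription factor. The sources used here do not say whether the controls carried Cre. The labels describe the samples as total jejunum, so epithelial RNA was mixed with RNA of muscle, stroma and immune cells. Fewer cells of a type and less RNA per cell therefore cannot be told apart.

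The ER folds secreted and membrane proteins. When unfolded proteins build up there, 3 kinds of sensor in its membrane signal to the nucleus: PERK (Eif2ak3), which slows translation and favours the making of Atf4 protein; IRE1 (Ern1, and Ern2 in mucosal epithelia), which splices the Xbp1 transcript; and ATF6 (Atf6), which is cut to release a transcription factor. Atf6 and spliced Xbp1 raise the transcription of chaperones, folding enzymes and the machinery that removes misfolded proteins, while Atf4 raises amino acid metabolism and, under lasting stress, Ddit3. The intestine holds cells with a heavy secretory load, such as goblet, Paneth and plasma cells, which rely on this pathway. The arrays read transcript levels, so they show neither Xbp1 splicing nor the cutting of Atf6 protein nor the translation of Atf4.

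The promoters of these genes are shown first because several hold the element through which Atf6 and Xbp1 are known to act. RefSeq promoter windows of mouse assembly GRCm38.p6, from 250 bases before to 50 bases after the transcription start, were found for 32 of the 38 members, in 33 windows. The ER stress response element (ERSE) was searched as CCAAT and CCACG separated by 9 bases, on both strands. It lay in 9 of the 33 member windows (27.3%) and in 39 of all 32851 windows (0.119%). The related ERSE-II, ATTGG and CCACG separated by 1 base, lay in 2 member windows (6.06%) and in 12 of all windows (0.0365%). The members were chosen as genes of the pathway that these elements serve. Higher shares than over all windows were therefore likely beforehand and are no test. Both elements share CCACG, and no match of one overlapped a match of the other. Of the 12 matches in members, 8 read on the gene's strand and 4 on the opposite strand. The matches are listed below on the gene's strand, with capitals marking the fixed letters, so an element on the opposite strand starts with CGTGG.
Hspa5 ERSE: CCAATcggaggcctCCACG
Creld2 ERSE: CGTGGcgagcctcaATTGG
Hsp90b1 ERSE: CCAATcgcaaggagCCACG
Hsp90b1 ERSE: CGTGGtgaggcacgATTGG
Calr ERSE: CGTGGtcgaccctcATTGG
Canx ERSE: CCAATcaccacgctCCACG
Dnajc3 ERSE: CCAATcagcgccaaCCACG
Pdia6 ERSE: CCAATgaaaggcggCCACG
Derl3 ERSE: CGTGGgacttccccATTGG
Syvn1 ERSE: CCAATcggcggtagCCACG
Dnajb11 ERSE-II: ATTGGcCCACG
Herpud1 ERSE-II: ATTGGgCCACG

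The window of Hspa5, which encodes the chaperone BiP, lies at chr2:34771840-34772139 on the + strand and holds its ERSE at bases -65 to -47 from the start. That of Creld2, an ER folding factor, lies at chr15:88819396-88819695 on the + strand with an ERSE at -126 to -108. That of Herpud1, a membrane protein of ER degradation, lies at chr8:94386179-94386478 on the + strand with an ERSE-II at -52 to -42. The window of Asns, asparagine synthetase, lies at chr6:7693160-7693459 on the - strand. It holds TGATGAAAC, the amino acid response element known from this gene, at -23 to -15. These windows are printed because those of Hspa5 and Creld2 hold the commoner element, that of Herpud1 the rarer one and that of Asns TGATGAAAC. Capitals mark only letters that match the exact forms searched.
Hspa5: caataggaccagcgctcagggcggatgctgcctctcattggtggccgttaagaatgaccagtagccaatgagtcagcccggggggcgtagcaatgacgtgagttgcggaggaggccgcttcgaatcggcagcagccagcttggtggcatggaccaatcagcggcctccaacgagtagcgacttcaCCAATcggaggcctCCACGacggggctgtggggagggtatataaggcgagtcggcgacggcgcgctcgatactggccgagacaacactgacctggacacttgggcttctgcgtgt
Creld2: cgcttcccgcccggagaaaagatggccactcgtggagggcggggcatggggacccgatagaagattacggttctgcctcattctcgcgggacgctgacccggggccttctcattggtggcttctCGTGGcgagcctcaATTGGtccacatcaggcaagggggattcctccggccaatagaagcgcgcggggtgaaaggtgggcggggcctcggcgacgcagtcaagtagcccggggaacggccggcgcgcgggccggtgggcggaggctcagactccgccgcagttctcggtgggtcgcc
Herpud1: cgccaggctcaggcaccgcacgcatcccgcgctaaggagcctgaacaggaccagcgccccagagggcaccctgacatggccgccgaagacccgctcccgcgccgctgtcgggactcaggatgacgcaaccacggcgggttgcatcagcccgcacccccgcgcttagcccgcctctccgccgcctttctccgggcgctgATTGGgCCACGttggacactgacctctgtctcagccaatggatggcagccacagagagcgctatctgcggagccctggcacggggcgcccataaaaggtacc
Asns: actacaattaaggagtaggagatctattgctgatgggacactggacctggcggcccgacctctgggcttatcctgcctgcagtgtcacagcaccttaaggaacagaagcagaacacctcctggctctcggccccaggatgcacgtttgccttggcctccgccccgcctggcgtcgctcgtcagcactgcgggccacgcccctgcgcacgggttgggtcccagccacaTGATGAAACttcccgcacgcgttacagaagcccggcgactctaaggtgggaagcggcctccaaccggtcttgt

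TGATGAAAC lay in 1 of the 33 member windows, that of Asns, and in 0.247% of all windows. Another Atf4 form, TGATGNAAT, was in 0 of the member windows and in 0.965% of all windows, and the form TGACGTGG in 0 and 0.676%. TGATGNAAT requires a final T, so the Asns element itself falls outside it. With that last letter left free, it would match the opposite strand in the windows of Chac1, Trib3, Atf3 and Herpud1. That shorter form was not counted over all windows, so the 0 holds only for the exact letters searched. A match is a run of letters, not a measured binding site.

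On the arrays, Hnf4a read 11.82, 11.76 and 11.57 on the log2 scale in controls 1, 2 and 3, and 8.83, 8.83 and 9.82 in mutants 1, 2 and 3. It fell by 2.56 ± 0.25 (SE), that is 5.88-fold (limma, adjusted p = 0.00756), although its call rests on control 2 (adjusted p = 0.0506 without it). The arrays had medians between 3.93 and 3.98 and rank correlations across genes between 0.984 and 0.993. Of all genes, 96 passed an adjusted p of 0.05 (0.528%). Control 3 stood apart in transcripts of the exocrine pancreas and mutant 2 in those of fat cells. Y-linked transcripts (Eif2s3y, Kdm5d and Uty) averaged 5.54 in control 1 and 5.62 in mutant 3, and 2.53 to 2.70 on the other arrays, so each group mixes animals that differ in them.

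Most of the 38 members lay somewhat higher in the mutants, by amounts too small to pass the test across all genes. Of the 38, 0 reached an adjusted p of 0.05, 32 had a mutant mean above the control mean and 6 had one below it: Atf4, Ddit3, P4hb, Derl3, Trib3 and Chac1. The median difference, mutant minus control, was 0.22 on the log2 scale, against -0.01 over all genes, of which 46.7% lay above. At an unadjusted p of 0.05 in limma, 13 members were higher (34.2%), against 5.24% of all genes, and 1 was lower (2.63%), against 6.85%. Every mutant lay above every control in 13 members, against 6.93% of all genes, and below in 2, against 10.2%. The members are bright: all 38 lay above the median gene in mean signal. In a separate fit of the 12162 genes with a probe set above the median probe set, 6.17% were higher and 8.29% lower at that p. In that fit 11 of the 38 members were higher. The median member lay at percentile 92.1 of mean signal, so those genes are not matched to the members in brightness.

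The 13 higher members were Ern1, Atf3, Hspa5, Dnajb9, Dnajc3, Dnajc10, Creld2, Manf, Pdia4, Pdia5, Sec61a1, Ssr1 and Asns, and the lower one was Chac1. The count of higher members fell to 8 without control 2, to 7 without control 3 and to 7 without mutant 3. Those whose unadjusted p stayed under 0.05 in limma whichever array was left out were 4: Hspa5, Dnajb9, Sec61a1 and Asns. The lowest adjusted p of any member under any alternative was 0.0624, for Dnajb9 without mutant 1.

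**Figure D1:**
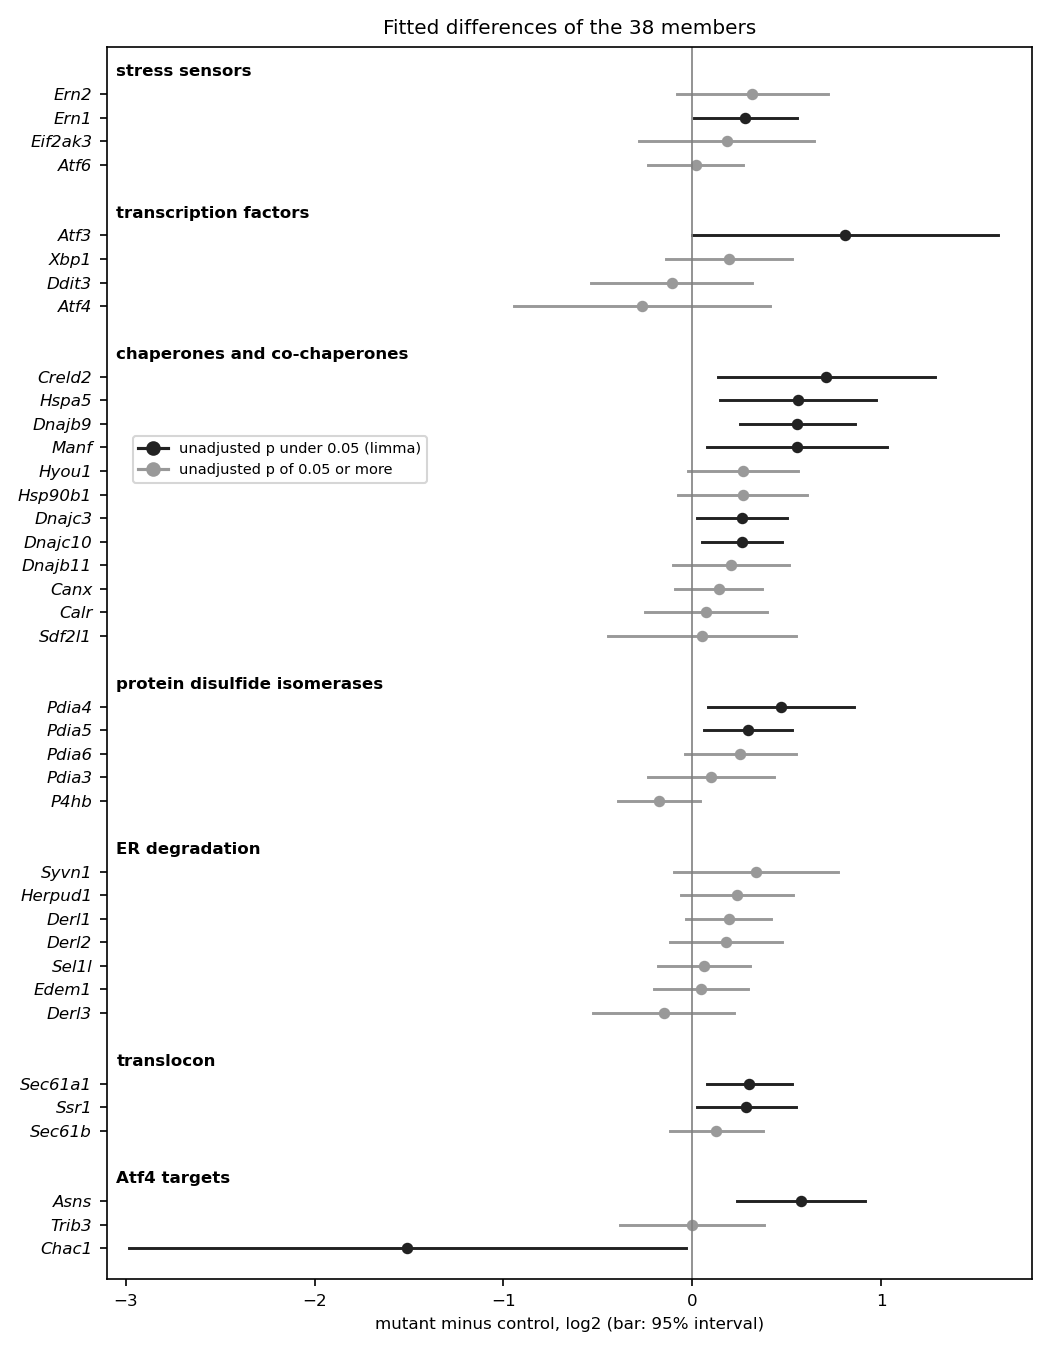
Fitted difference of each of the 38 genes, mutant minus control on the log2 scale, ordered by role, with its 95% interval (3 arrays per group). The intervals in black leave out 0: 13 genes lie to the right and 1, Chac1, to the left, and 0 of the 38 reached an adjusted p of 0.05.

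The sensors lay at or slightly above their control level. All 4 had a mutant mean above the control mean, with a median difference of 0.23. Ern1, the broadly expressed IRE1 kinase, read 7.63, 7.89 and 7.65 in the controls and 8.11, 7.87 and 8.03 in the mutants. The groups overlapped through control 2 and mutant 2, and the difference was 0.28 ± 0.12 (SE; limma, unadjusted p = 0.0447, adjusted p = 0.394). Ern2, the IRE1 of mucus-producing epithelium, read 5.41, 5.68 and 5.07 in the controls and 5.93, 5.54 and 5.65 in the mutants. Its difference, 0.32 ± 0.17, had an unadjusted p of 0.102 in limma, with mutants 2 and 3 under the highest control. It was 0.16 without control 3 and 0.21 without mutant 1. Eif2ak3 read 7.34, 7.53 and 7.31 in the controls, and the mutants fell on both sides of them at 7.12, 7.63 and 7.98. Its difference of 0.18 ± 0.20 came to -0.02 without mutant 3. Atf6 was nearly level, at 7.72, 7.99 and 7.79 against 7.79, 7.92 and 7.85, a difference of 0.02 ± 0.11.

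The transcription factors did not move together. Xbp1, the factor downstream of IRE1, read 10.92, 11.05 and 10.92 in the controls and 11.09, 10.93 and 11.46 in the mutants. Mutant 3 stood above the rest and mutant 2 among the controls, with a difference of 0.20 ± 0.15 (limma, adjusted p = 0.671). Atf4 read 10.01, 9.93 and 10.29 in the controls and 9.14, 9.83 and 10.47 in the mutants. Its lowest and its highest value were both in mutants, so the difference of -0.27 ± 0.29 had a 95% interval from -0.94 to 0.41. Ddit3, which encodes the stress factor CHOP, read 6.72, 6.79 and 7.09 against 6.38, 6.84 and 7.06. That is a difference of -0.11 ± 0.19 (limma, adjusted p = 0.881), and mutants 2 and 3 lay inside the control range. Atf3, a factor induced by several kinds of stress, read 7.06, 6.65 and 6.81 in the controls and 6.90, 8.51 and 7.55 in the mutants. Mutant 1 lay inside the control range and mutant 2 far above it, so the difference of 0.81 ± 0.35 (limma, unadjusted p = 0.0499) was 0.38 without mutant 2.

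The chaperones and co-chaperones held the most members with a difference at the unadjusted threshold, and every one of the 12 had a mutant mean above its control mean. Their median difference was 0.27, and 6 of the 12 had an unadjusted p under 0.05 in limma. Hspa5 (BiP), the main Hsp70 of the ER and the partner that holds the sensors inactive, read 11.80, 11.60 and 11.73 in the controls and 12.03, 12.09 and 12.69 in the mutants. All mutants lay above all controls, mutant 3 by the most. The difference was 0.56 ± 0.18, with a 95% interval from 0.15 to 0.97, or 1.48-fold (limma, unadjusted p = 0.0137, adjusted p = 0.263). Without mutant 3 it was 0.35, with an unadjusted p of 0.0166 in limma. Another bright Hspa5 probe set differed by 0.65, whereas the dimmest of the gene differed by -0.09.

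Dnajb9 (ERdj4), a co-chaperone of BiP, had the smallest unadjusted p of the 38. It read 9.46, 9.36 and 9.36 in the controls and 9.70, 10.00 and 10.16 in the mutants. The controls lay close together and every mutant above them, a difference of 0.56 ± 0.13 or 1.47-fold (limma, unadjusted p = 0.00295, adjusted p = 0.144). Creld2 had the largest difference of the chaperones, 0.71 ± 0.25 or 1.64-fold. Its values were 8.58, 7.96 and 8.38 in the controls and 8.63, 8.86 and 9.56 in the mutants. Mutant 1 exceeded control 1 only slightly, and the difference was 0.54 without the low control 2 (limma, unadjusted p = 0.0803) and 0.44 without mutant 3. Manf, a secreted ER protein that helps cells to survive ER stress, read 10.86, 10.50 and 10.75 in the controls. In the mutants it read 10.80, 11.35 and 11.63, so mutant 1 lay within the control range. The difference was 0.56 ± 0.21, or 1.47-fold (limma, adjusted p = 0.33).

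Of the other co-chaperones, Dnajc3, which encodes the PERK inhibitor p58IPK, differed by 0.26 ± 0.10, with controls at 9.17, 9.20 and 9.15 and mutants at 9.40, 9.34 and 9.58. Dnajc10 (ERdj5), a disulfide reductase, differed by 0.26 ± 0.09, with controls at 7.44, 7.45 and 7.40 and mutants at 7.68, 7.75 and 7.66. On these brightest probe sets of both genes the spread within the groups was small and the mutants lay wholly above the controls. The other probe sets differed by 0.18, -0.08, 0.12 and 0.17 for Dnajc3 and by 0.16 and 0.17 for Dnajc10, with overlapping groups. Hyou1, a large Hsp70 relative that exchanges nucleotide on BiP, read 8.58, 8.24 and 8.35 against 8.60, 8.57 and 8.82, so mutant 2 lay just under control 1. It differed by 0.27 ± 0.13 (limma, unadjusted p = 0.0661). Hsp90b1 (GRP94), the ER form of Hsp90, differed by 0.27 ± 0.15 and Dnajb11 by 0.20 ± 0.13, both with overlapping groups. The lectin chaperones of the calnexin cycle differed little: Canx by 0.14 ± 0.10, with every mutant above every control, and Calr by 0.07 ± 0.14. Sdf2l1 differed by 0.05 ± 0.22, mutant 1 being the lowest array.

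**Figure D2:**
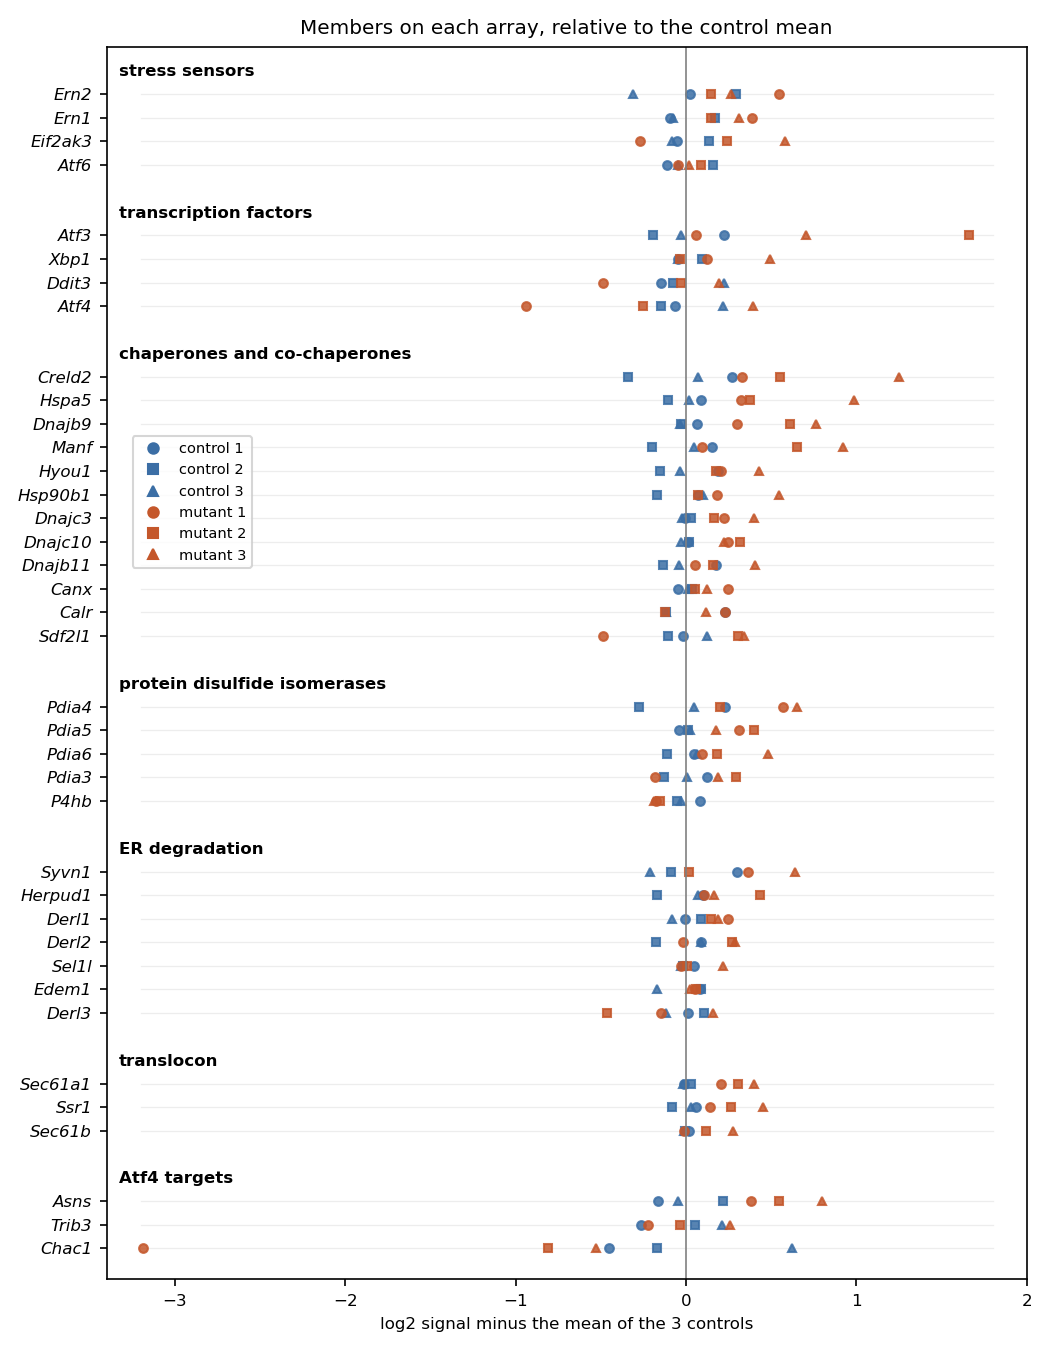
Level of each of the 38 genes on each array, as the log2 signal minus the mean of the 3 controls, ordered by role; blue marks are controls and orange marks mutants, with a shape for each animal number. Mutant 3 is the highest of the 6 arrays in 23 of the 38 genes, and mutant 1 lies far to the left for Chac1 and Atf4.

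The protein disulfide isomerases, which form and rearrange disulfide bonds, divided into 4 members above and 1 below the control mean. Pdia4 (ERp72) read 6.75, 6.25 and 6.57 in the controls and 7.09, 6.72 and 7.17 in the mutants. Only control 1 reached into the range of the mutants, and the difference was 0.47 ± 0.17, or 1.39-fold (limma, adjusted p = 0.305). Pdia5 read 7.58, 7.63 and 7.64 against 7.93, 8.01 and 7.79, with no overlap, a difference of 0.30 ± 0.10. Pdia6, a regulator of the stress sensors, read 9.91, 9.75 and 9.93 against 9.96, 10.05 and 10.35. It also showed no overlap, at a difference of 0.25 ± 0.13 (limma, unadjusted p = 0.0815). P4hb, the founding isomerase and a subunit of prolyl 4-hydroxylase and of the microsomal triglyceride transfer protein, went the other way. It read 12.69, 12.55 and 12.58 in the controls and 12.43, 12.45 and 12.42 in the mutants, so that every mutant lay below every control (-0.17 ± 0.09; limma, adjusted p = 0.532). Pdia3, which works with calnexin, differed by 0.10 ± 0.14.

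The genes of ER degradation, which carry misfolded proteins out to the proteasome, differed less. Of the 7, 6 had a mutant mean above the control mean, the median difference was 0.18, and 0 had an unadjusted p under 0.05 in limma. Syvn1, the ubiquitin ligase HRD1, had the largest difference, 0.34 ± 0.19. It read 8.12, 7.73 and 7.61 in the controls and 8.19, 7.84 and 8.46 in the mutants, so control 1 lay above mutant 2. Herpud1 read 10.04, 9.77 and 10.01 against 10.05, 10.38 and 10.11. The mutants lay above the controls, mutant 1 only by a little, with a difference of 0.24 ± 0.13 that was 0.15 without control 2 and 0.14 without mutant 2. The derlins, membrane proteins of the export channel, differed by 0.19 ± 0.10 (Derl1), 0.18 ± 0.13 (Derl2) and -0.15 ± 0.16 (Derl3). Edem1, a lectin that picks glycoproteins for removal, differed by 0.05 ± 0.11 and Sel1l, the partner of HRD1, by 0.06 ± 0.11.

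The translocon carries new proteins into the ER, and its 3 members all lay above their control means. Sec61a1, the channel subunit, read 11.34, 11.37 and 11.33 in the controls and 11.55, 11.65 and 11.75 in the mutants. The controls were almost equal and every mutant lay above them, a difference of 0.30 ± 0.10 or 1.23-fold (limma, unadjusted p = 0.0147, adjusted p = 0.267). The other Sec61a1 probe sets differed by 0.36, 0.20, 0.05, 0.05 and -0.01. With the mean of all probe sets its unadjusted p in limma was no longer under 0.05. Ssr1, a subunit of the translocon-associated protein complex, read 9.74, 9.60 and 9.71 against 9.82, 9.95 and 10.14. It differed by 0.29 ± 0.11 without overlap, yet its probe sets disagreed: of the dimmer ones, one differed by 0.35 and another by -0.36. Sec61b, the small channel subunit, differed by 0.13 ± 0.11.

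The targets of Atf4 went in different directions. Asns read 8.63, 9.01 and 8.75 in the controls and 9.18, 9.35 and 9.60 in the mutants. Every mutant lay above every control, and the difference was 0.58 ± 0.15, with a 95% interval from 0.24 to 0.92, or 1.49-fold (limma, unadjusted p = 0.00427, adjusted p = 0.168). Another Asns probe set differed by 0.71, but it is of the _x_at type, which may also bind related transcripts. Chac1, an enzyme that degrades glutathione, read 6.43, 6.71 and 7.50 in the controls and 3.70, 6.07 and 6.35 in the mutants. All mutants lay below all controls, mutant 1 by far the most, and its value there was under that of the median probe set. The difference was -1.51 ± 0.64, with a 95% interval from -2.98 to -0.03 (limma, unadjusted p = 0.0464, adjusted p = 0.4), and -0.67 without mutant 1. Trib3, a pseudokinase that restrains Atf4 and Ddit3, read 6.42, 6.73 and 6.90 against 6.46, 6.65 and 6.94, with the groups on top of each other. The Trib3 probe set is also of the _x_at type.

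**Figure D3:**
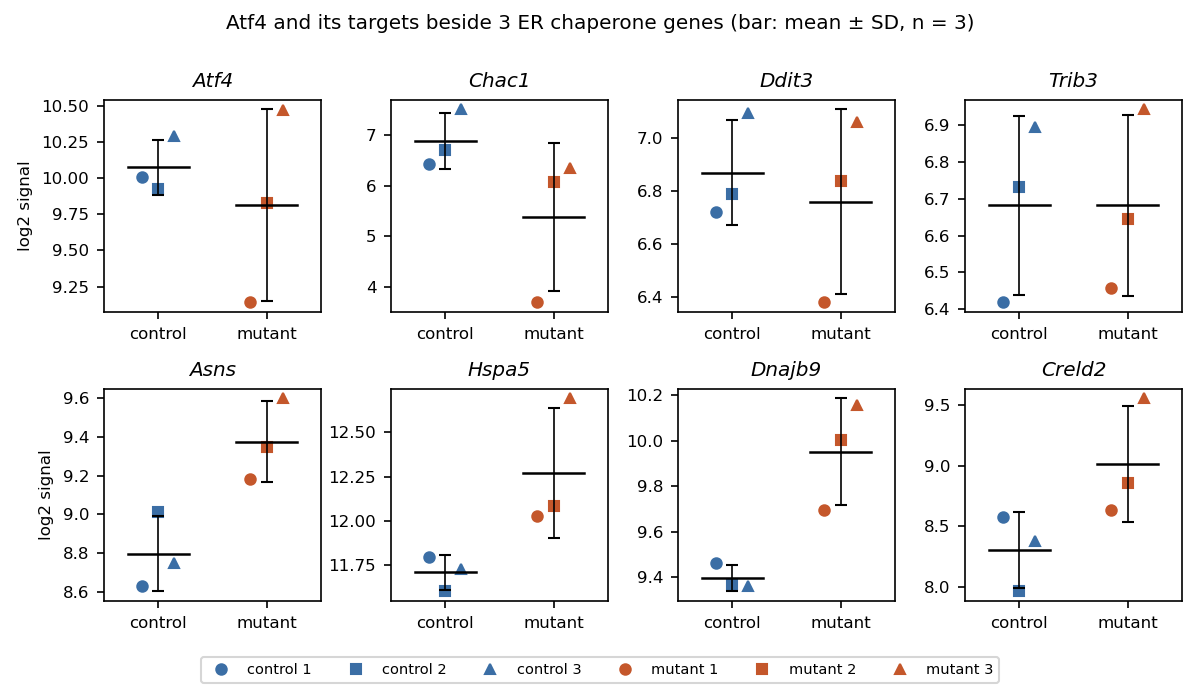
Log2 signal of Atf4, Chac1, Ddit3, Trib3, Asns, Hspa5, Dnajb9 and Creld2 on each array (y axis, a scale of its own in each panel that does not start at 0), by group; the horizontal bar is the mean and the error bar the SD over 3 animals. Asns, Hspa5, Dnajb9 and Creld2 show every mutant above every control and Chac1 every mutant below, while Atf4, Ddit3 and Trib3 overlap.

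**Figure D4:**
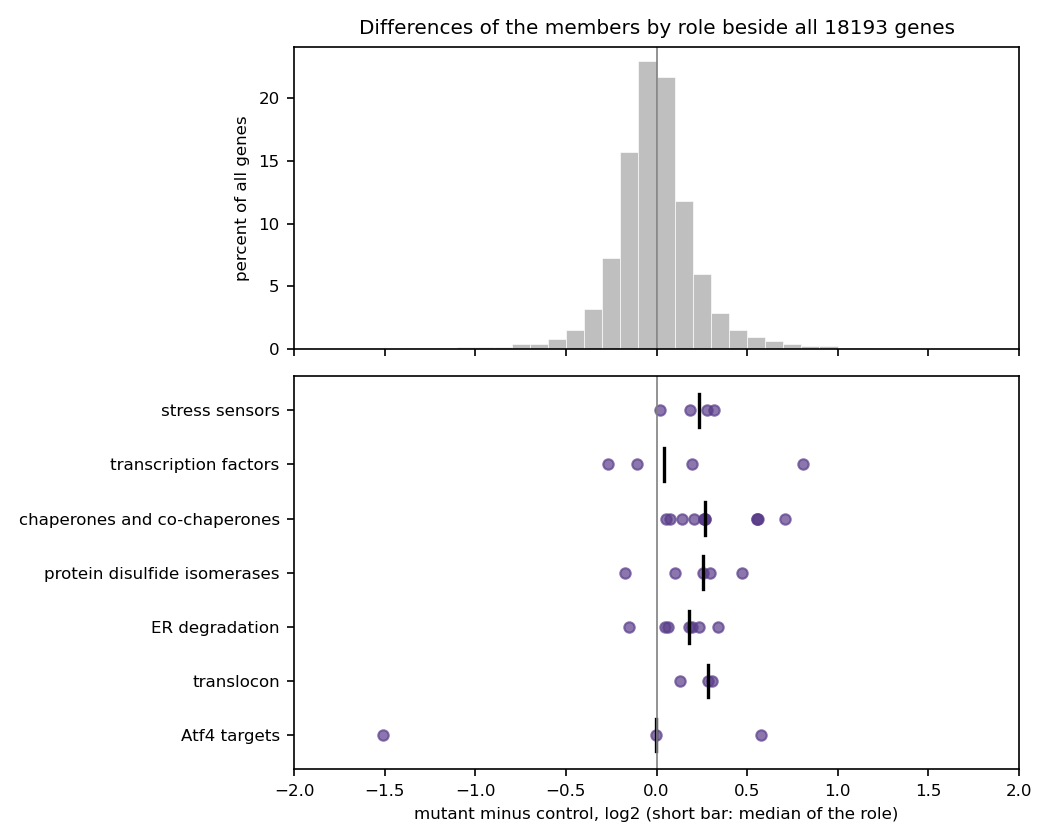
Upper panel: distribution of the mutant minus control difference (log2) over all 18193 genes, as percent of genes per bin, the end bins holding all differences beyond them. Lower panel: each of the 38 genes by role, with a short bar at the median of the role. Chaperones centre on 0.27 and ER degradation on 0.18, while the 3 Atf4 targets spread from -1.51 to 0.58.

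The higher levels were unevenly shared by the mutant animals. Mutant 3 was the highest of the 6 arrays in 23 of the 38 members (60.5%), against 19.2% of all genes. It was also the mutant with the most Hnf4a signal left (9.82, against 8.83 and 8.83 in mutants 1 and 2). Among the mutants only mutant 3 had high Y-linked transcripts (5.62, against 2.54 and 2.53). The part of these differences between the mutants was not tested. Control 2 was the lowest in 12 (31.6%), against 14.2%. The mean level of the 17 chaperones and disulfide isomerases was 9.40 to 9.60 in the controls and 9.66, 9.75 and 9.97 in mutants 1, 2 and 3, so mutant 1 lay just above the highest control. Without mutant 3 the median difference of these 17 was 0.19 rather than 0.26, and that of all 38 was 0.14. Without it the difference was 0.13 for Hsp90b1, 0.10 for Dnajb11, 0.14 for Pdia6 and 0.19 for Syvn1. Mutant 1 was the lowest array in 8 members (21.1%), near its share of 22.7% over all genes. They were Eif2ak3, Atf4, Ddit3, Sdf2l1, Pdia3, Sel1l, Sec61b and Chac1.

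Members with and without a match to the promoter elements overlapped in their differences, and a link between the 2 was not tested. The 11 with an ERSE or ERSE-II match ranged from -0.15 (Derl3) to 0.71 (Creld2), with a median of 0.25, 10 above the control mean and 3 higher at an unadjusted p of 0.05. The 21 with a window but neither match had a median of 0.18, with 16 above, 8 higher and 1 lower at that p. Dnajb9, Pdia4 and Pdia5 were among the higher members without a match in the window.

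Probe sets other than the brightest mostly gave the same direction. The members had 91 probe sets, and 26 members had more than 1. Of the 44 other probe sets above the median probe set, 32 had the direction of the brightest one. For the 13 higher members, 14 of 18 such probe sets were higher in the mutants. In Ddit3 the dimmer probe set differed by -0.32 and the brightest probe set by -0.11. In Atf4 the brightest probe set differed by -0.27, the next by 0.17 and the dimmest by -0.13.

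Beyond the members, the rest of the ER machinery showed little displacement. Among other ER folding enzymes 21 of 34 measured genes lay above the control mean, with a median difference of 0.02, and 0 passed the test. The smallest p-values belonged to Agr2, an isomerase of goblet cells (0.54), Nucb2 (0.42) and Hspa13 (0.37). Other ER degradation genes divided evenly, 13 of 26 above, with Ube2g2 at 0.40, Rnf5 at -0.43 and Marchf6 at -0.62. ER exit and coat proteins had 10 of 25 above and a median of -0.09, with Kdelr3 at 0.41, Bet1 at -0.56 and Sec13 at -0.64. Other translocon genes had 15 of 20 above and a median of 0.09 (Sec11c 0.38, Spcs2 0.29, Ssr2 0.24), and the oligosaccharyltransferase 8 of 12 and 0.07 (Stt3a 0.28, Tusc3 0.27, Rpn1 0.20). None of the genes in these lists passed the adjusted test. Other sensors and regulators had 9 of 19 above and a median of -0.00, with 0 past the test. They included Creb3l1, an ATF6 relative of secretory cells, at 0.69 (limma, adjusted p = 0.067), and Eif2ak1 at -0.41 and Creb3l2 at -0.38.

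Other targets of Atf4 had 18 of 22 above the control mean and a median of 0.17, and 1 passed the test, in the lower direction. Cth, the enzyme that makes cysteine from cystathionine, read 8.95, 8.64 and 8.90 in the controls and 7.78, 8.09 and 7.92 in the mutants. Cth fell by 0.90 ± 0.13 (limma, adjusted p = 0.0307), with no overlap of the groups. The call was lost whichever array was left out, with adjusted p from 0.0617 to 0.172. The other smallest p-values were those of Slc7a5, an amino acid transporter (0.48), and Nupr1, a stress-induced chromatin protein (0.64). All 12 cytoplasmic tRNA synthetases, enzymes that Atf4 can raise, lay above their control means with a median of 0.20, and 0 passed the test (Wars 0.42, Yars 0.31, Iars 0.26). Mitochondrial stress proteins had 4 of 11 above and a median of -0.05, with 0 past the test (Hspe1 0.25, Yme1l1 -0.15, Grpel2 -0.42).

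Cytosolic heat shock proteins, which serve protein folding outside the ER, had 16 of 18 above the control mean and a median of 0.32, with 0 past the test. Hspb8 differed by 0.33 and Dnajb4 by -0.42. Hspa1b, an inducible Hsp70 whose near-identical copy Hspa1a may share its signal, read 7.85, 7.55 and 7.78 in the controls and 8.66, 8.87 and 11.35 in the mutants. It differed by 1.90 ± 0.62 (limma, adjusted p = 0.27), and mutant 3 stood far above the other mutants. Without mutant 3 the difference was 1.04 (limma, adjusted p = 0.0292), the only fit with 1 array left out in which it passed. The mean level of this list was 8.31 to 8.53 in the controls and 8.46, 8.62 and 9.35 in mutants 1, 2 and 3. The array highest in most of the ER members was thus also the highest in cytosolic heat shock genes, whose part in the result was not tested.

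Goblet and Paneth markers also had a higher mean level in the mutants, though their brightest genes did not all lie higher. The 14 goblet markers, which include the member Ern2 and Agr2, had a mean level of 9.75 to 9.97 in the controls and 10.03 to 10.07 in the mutants, with 10 of 14 above the control mean. The brightest differed by -0.01 (Zg16), 0.03 (Tff3) and 0.21 (Spink4). The 8 measured Paneth markers averaged 10.05 to 10.13 in the controls and 10.18 to 10.32 in the mutants, with 6 of 8 above. Their brightest differed by -0.31 (Lyz1), 0.10 (Ang4) and 0.21 (Itln1). Neither the goblet nor the Paneth list overlapped in mean level between the groups. Of the 15 enteroendocrine markers, 10 lay above the control mean. An adjusted p of 0.05 in limma was passed by 1 in the higher direction and by 2 in the lower. Their brightest differed by -1.16 (Nts), -1.89 (Gip) and 0.08 (Chgb). The part of these lists in the levels of the ER members was not tested.

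Plasma and B cell markers had 13 of 14 measured genes above the control mean. Their mean level was 5.99 to 6.78 in the controls and 6.62 to 6.98 in the mutants, which overlap. The brightest differed by 0.31 (Jchain), 0.87 (Sdc1, also an epithelial gene) and 0.23 (Ighm). T cell and intraepithelial lymphocyte markers had 13 of 13 above, at 5.82 to 7.10 in the controls and 6.92 to 7.57 in the mutants. Absorptive enterocyte markers had 1 of 15 above, at 12.53 to 12.68 in the controls and 12.33 to 12.51 in the mutants. The part of these cells in the levels of the ER members was not tested.

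Pancreatic acinar cells make much of several members. The mean level of their 17 measured markers was 7.95 in control 3, against 5.85 to 5.96 on the other arrays. Control 3 was the highest array in 14 of the 17, but not in the 3 brightest, Spink1, Clps and Pnliprp2. Fat cell markers were high in mutant 2, at 8.19 against 6.38 to 7.08. With both of these arrays left out the median difference of the 38 members was 0.22, as with all arrays, and that of the 17 chaperones and disulfide isomerases was 0.30. Of the 13 higher members, 4 then had an unadjusted p under 0.05 in limma: Hspa5, Dnajb9, Pdia4 and Asns.

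**Figure D5:**
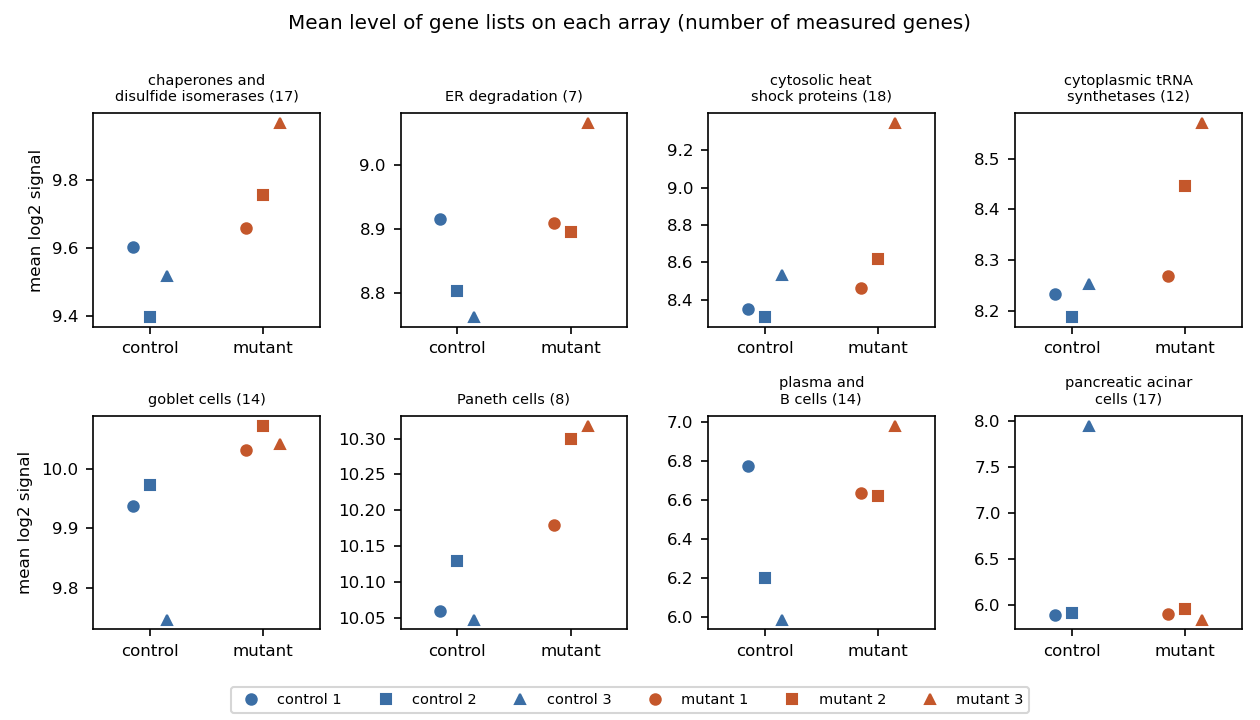
Mean log2 signal of 8 gene lists on each array (y axis, a scale of its own in each panel that does not start at 0), by group; the number of measured genes stands in each panel title. Chaperones and disulfide isomerases, tRNA synthetases, goblet and Paneth markers show every mutant above every control, cytosolic heat shock genes stand out in mutant 3 and acinar markers in control 3.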

How the data were processed

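RNA of 6 distal jejunum samples was measured on Affymetrix arrays, 1 per animal. For each array the authors deposited a log2 signal per probe set. The sources used here do not give the background correction, summarisation or normalisation. The values spanned 1.80 to 14.5, from which the log2 scale was inferred, and were used as deposited. Of 45101 probe sets, 64 Affymetrix controls were left out. Platform annotation gave 1 symbol to 34945 probe sets, several to 932 and none listed to 9160. Each gene was represented by its single-symbol probe set with the highest mean over the 6 arrays (18193 genes). Mutants were compared with controls in limma 3.58.1 (R 4.3.3), with lmFit and eBayes and Benjamini-Hochberg adjustment over all 18193 genes. Precision is limited by having 3 arrays per group. The procedure was tested on simulated data.

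The 38 members and all gene lists were chosen with earlier results of these data known. Lists are therefore described by counts and medians, with no test. Array values are given for the 8 genes Hspa5, Ddit3, Atf4, Xbp1, Ern1, Ern2, Eif2ak3 and Atf6 and the 14 other members with the smallest unadjusted p. From each other pathway list the 3 genes with the smallest p are named. The 3 brightest are named for goblet, Paneth, enteroendocrine, plasma and B cell, and pancreatic acinar markers. Array values of P4hb, Herpud1, Syvn1 and Trib3 were added after they were seen. Promoter windows came from RefSeq (GRCm38.p6). The series names no genome build. Alternatives in normalisation, low values, probe set, variance model, replicate block and left-out arrays are described in the closing section. Protein sequences were not used here.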

Additional observations from a re-analysis of the deposited data

How the results depend on the processing

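Across 16 alternatives 0 members passed an adjusted p of 0.05, and of 608 member differences 580 kept their direction and 28 reversed. The median difference of all members, and that of chaperones with disulfide isomerases, stayed within its replicate spread. The count higher at an unadjusted p of 0.05 (13) and the count lower (1) became 6 and 0 with the mean of all probe sets, 8 and 2 with the highest-variance probe set, and 4 and 0 without control 3 and mutant 2 together. With trend and robust eBayes the lower count was 0. The ER degradation median (0.18) was 0.064 with the mean of all probe sets and 0.070 with the highest-variance one. Leaving out 1 array gave 7 to 14 higher, 0 to 2 lower and an ER degradation median of 0.094 to 0.19. The causes were not tested.

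Reversals lay in members near 0, in members with discordant probe sets and in members whose direction depended on 1 array, such as Atf4, Eif2ak3 and Derl3. Trib3 was 0.013 after quantile normalisation, 0.0070 after median centring and 0.12 without control 3 and mutant 2. Without that pair Atf6 was -0.037, Sdf2l1 -0.012 and Edem1 -0.047. Sel1l was -0.12 with the mean of all probe sets. With the highest-variance one Sel1l was -0.21, Dnajc3 -0.080, Pdia6 -0.12 and Ssr1 -0.36. Leaving out 1 array gave ranges of -0.59 to 0.070 (Atf4), -0.035 to 0.099 (Atf6), -0.0018 to 0.19 (Calr), -0.26 to 0.081 (Ddit3), -0.31 to 0.0054 (Derl3), -0.040 to 0.089 (Edem1), -0.016 to 0.41 (Eif2ak3), -0.091 to 0.32 (Sdf2l1), -0.013 to 0.11 (Sel1l) and -0.13 to 0.11 (Trib3).

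Same-numbered controls and mutants correlated at 0.07, 0.07 and -0.02 in their deviations, and differently numbered ones at -0.17 to 0.13. With 3 arrays per group these values cannot show whether the numbers pair the animals, and the main fit treated them as unpaired. With the replicate block 10 members were higher, 1 lower and 0 passed the adjusted test. The Hnf4a call was lost with a floor on low values (adjusted p = 0.114) and when both control 3 and mutant 2 were left out (0.205), and that of Cth with the floor (0.132), the block (0.104) and that pair left out (0.338).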
